A study of Mus musculus with 18 samples.

Results

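The broadest stretches of H3K27me3 in E14 mouse embryonic stem cells were taken as all autosomal intervals of the deposited list of replicated H3K27me3 peaks that spanned 50 kb or more. This gave 1564 domains of 43094 peaks in all, and they held 24.4% of the sequence under H3K27me3 peaks and 134.5 Mb in total. Their widths ran from 50000 to 524000 bp with a median of 72000 bp, 376 domains spanned at least 100 kb and 47 at least 200 kb. The list placed 320 peaks on the X chromosome, of which the widest was 35000 bp, so none of them reached the width of a domain. Because untreated H3K27me3 set the peaks and their edges, its level inside the domains is described without a test. The other marks were not used for the choice and were tested. H3K27me3 in the separately prepared DMSO libraries was tested too, but a higher level inside was largely given by the choice, since the same mark in the same line defined the domains.

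Chromatin immunoprecipitation followed by sequencing was done on E14 cells, a pluripotent line, in 2i/LIF medium (inhibitors of MEK and GSK3 with the cytokine LIF) with arginine and lysine of light, medium or heavy isotopes. Untreated cells gave 10 libraries without a spike-in, 2 each for mono-, di- and trimethylated H3K27 (H3K27me1, H3K27me2, H3K27me3) and for H3K36me2 and H3K36me3. A quantitative experiment gave 8 libraries, 2 for each of H3K27me3 and H3K36me2 after 7 days in 10 µM EPZ-6438, an inhibitor of the methyltransferase EZH2 (EZH2i below), or in an equal volume of the solvent DMSO. Sonicated chromatin of Drosophila S2 cells was added to the quantitative samples as a reference. All groups share the line and the medium, and nothing in the labels says whether replicates were separate cultures, so the spread between them may be technical. The untreated and DMSO cells carry no genetic change, and the study's question for these samples was how the distribution and amount of both marks respond when EZH2 is inhibited.

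Depth, counted as reads over non-overlapping 1 kb windows, was 22.9 to 67.5 M reads in the untreated libraries, 21.6 and 27.9 M reads for H3K27me3 in DMSO and 50.5 to 112 M reads for H3K36me2. The EZH2i libraries for H3K27me3 held 0.992 and 1.78 M reads and are the least precise of the series. H3K36me3, which marks transcribed gene bodies, ran at 3.47 to 8.3 times the genome mean over all 8 pluripotency genes checked, among them Pou5f1 at 7.18 and 7.83. Of the genes of differentiated cells, Alb, Hbb-bt and Neurod1 lay below the genome mean, whereas the muscle factor gene Myod1 (1.64 and 1.15) lay above it. Below, a level is the mean reads per window over a region divided by the same library's mean over all windows, so a level of 1 is the genome mean. The spike-in scale is the reads multiplied by the factor that the deposited values carry for each quantitative library.

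Polycomb repressive complex 2 (PRC2) places 1, 2 or 3 methyl groups on lysine 27 of histone H3 through its catalytic subunit EZH2 or the related EZH1. The trimethyl form marks silenced developmental genes in embryonic stem cells and is nucleated at CpG islands, short stretches of promoter DNA that are rich in the dinucleotide CG, from which it spreads. H3K36me2 is placed by the NSD family of methyltransferases and H3K36me3 by SETD2 over transcribed genes, and methylation of lysine 36 impedes PRC2 on the same histone tail.

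The promoters below are printed because start sites are described further on by their CG content, and they show a CpG-rich and a CpG-poor start as classed here. Each is 300 bases of RefSeq sequence, build GRCm38.p6, from 250 bases before to 50 bases after the annotated start, written 5′ to 3′ on the gene's strand, with every CG in capitals (both strands read CG alike). A promoter was called CpG-rich where its GC content exceeded 50% and the observed over expected CG ratio exceeded 0.6. These 6 were chosen after their values had been seen. Nkx1-1, a homeobox factor gene, starts in the promoter at chr5:33434041-33434340 (minus strand, 37 CG). Cdx2, a homeobox gene of trophectoderm and gut, has its promoter at chr5:147307200-147307499 (minus strand, 18 CG), and Ihh, a hedgehog ligand gene, at chr1:74951623-74951922 (minus strand, 30 CG). Hoxd13, the last gene of its cluster, has its promoter at chr2:74667975-74668274 (plus strand, 37 CG). Nos1, the neuronal nitric oxide synthase gene (chr5:117866589-117866888, plus strand), and Krt5, a keratin gene of basal epithelium (chr15:101712856-101713155, minus strand), have CpG-poor promoters with 6 CG each.
Nkx1-1: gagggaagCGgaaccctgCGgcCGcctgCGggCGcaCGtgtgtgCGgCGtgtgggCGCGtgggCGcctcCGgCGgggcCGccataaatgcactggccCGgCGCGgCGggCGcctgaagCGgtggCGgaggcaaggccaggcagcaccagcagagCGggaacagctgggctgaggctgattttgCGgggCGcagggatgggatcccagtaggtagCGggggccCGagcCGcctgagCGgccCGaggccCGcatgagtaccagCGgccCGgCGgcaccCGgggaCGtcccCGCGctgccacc
Cdx2: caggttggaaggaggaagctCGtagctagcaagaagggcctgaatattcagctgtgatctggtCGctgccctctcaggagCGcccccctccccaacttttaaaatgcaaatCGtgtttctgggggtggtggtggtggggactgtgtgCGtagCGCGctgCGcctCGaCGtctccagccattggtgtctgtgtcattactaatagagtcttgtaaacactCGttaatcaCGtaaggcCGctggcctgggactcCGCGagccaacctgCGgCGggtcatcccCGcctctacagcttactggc
Ihh: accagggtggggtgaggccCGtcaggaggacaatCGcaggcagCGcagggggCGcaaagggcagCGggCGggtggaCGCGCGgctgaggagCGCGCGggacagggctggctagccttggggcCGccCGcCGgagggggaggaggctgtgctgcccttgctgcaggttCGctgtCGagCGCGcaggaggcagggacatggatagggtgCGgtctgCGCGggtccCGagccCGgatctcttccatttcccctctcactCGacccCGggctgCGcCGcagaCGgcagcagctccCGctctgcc
Hoxd13: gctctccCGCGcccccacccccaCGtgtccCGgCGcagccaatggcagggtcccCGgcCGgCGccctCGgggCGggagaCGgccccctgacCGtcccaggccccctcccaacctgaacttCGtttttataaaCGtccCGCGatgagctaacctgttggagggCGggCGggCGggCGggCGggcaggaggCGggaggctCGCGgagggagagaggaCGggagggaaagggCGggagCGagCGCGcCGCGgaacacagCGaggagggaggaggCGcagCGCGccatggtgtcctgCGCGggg
Nos1: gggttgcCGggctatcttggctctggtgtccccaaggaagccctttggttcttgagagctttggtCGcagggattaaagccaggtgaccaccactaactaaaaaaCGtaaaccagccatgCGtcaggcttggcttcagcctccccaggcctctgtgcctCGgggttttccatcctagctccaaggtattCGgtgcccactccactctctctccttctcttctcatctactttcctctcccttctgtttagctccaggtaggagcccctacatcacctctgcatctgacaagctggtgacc
Krt5: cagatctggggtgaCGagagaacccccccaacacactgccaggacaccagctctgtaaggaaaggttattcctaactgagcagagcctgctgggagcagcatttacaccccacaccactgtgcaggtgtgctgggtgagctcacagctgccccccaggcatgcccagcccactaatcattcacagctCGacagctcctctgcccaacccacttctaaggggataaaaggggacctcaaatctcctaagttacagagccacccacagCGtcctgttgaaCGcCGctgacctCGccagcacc

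CpG-rich promoters made up a smaller share inside the domains than over all listed promoters. Of the 2505 listed promoters that start in a domain, 25.4% were CpG-rich, beside 25.6% in peaks of 20 to under 50 kb, 33.5% of all 32619 listed promoters and 38.6% of those in no H3K27me3 peak. A CpG-rich start lay in 444 domains, another 576 held only CpG-poor listed starts and 504 held no listed start, with the 40 domains on chromosome 18 left out, since its promoters were not analysed here. The first kind had a median width of 82500 bp and the last of 64500 bp. In untreated cells H3K27me3 averaged 5.04 and 4.89 times the genome mean in domains with a CpG-rich start (replicates 1 and 2), 4.37 and 4.11 in those with CpG-poor starts only and 3.84 and 3.59 in those without a listed start. Both replicates gave that order, which is a description since the same libraries defined the domains.

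Inside the domains of untreated cells, H3K27me3 averaged 4.33 ± 0.156 times the genome mean (SD, n = 2). H3K36me2 averaged 1.92 ± 0.0119, H3K27me2 1.44 ± 0.0522 and H3K36me3 1.24 ± 0.0725. Each level is relative to the genome mean of its own antibody's library, without a spike-in, so the levels do not rank the amounts of the marks. H3K27me1, at 1.03 ± 0.0322, stood at the genome mean. In the 50 kb flanks outside any H3K27me3 peak, H3K36me3 averaged 2.60 ± 0.089, H3K27me1 1.64 ± 0.13, H3K36me2 1.60 ± 0.0958, H3K27me2 1.49 ± 0.114 and H3K27me3 0.602 ± 0.00992. The domains therefore held less H3K27me1 and H3K36me3 than the peak-free sequence beside them and more H3K36me2, with the 2 replicates of one region on the same side of both replicates of the other.

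Apart from H3K27me3 itself, the levels inside the domains were not particular to the broadest peaks. Peaks of 20 to under 50 kb, of which there were 5162, averaged 0.985, 1.45, 3.29, 1.91 and 1.20 times the genome mean for H3K27me1, H3K27me2 and H3K27me3, then H3K36me2 and H3K36me3. The plot of mark levels inside and around the domains shows each library.

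**Figure D1:**
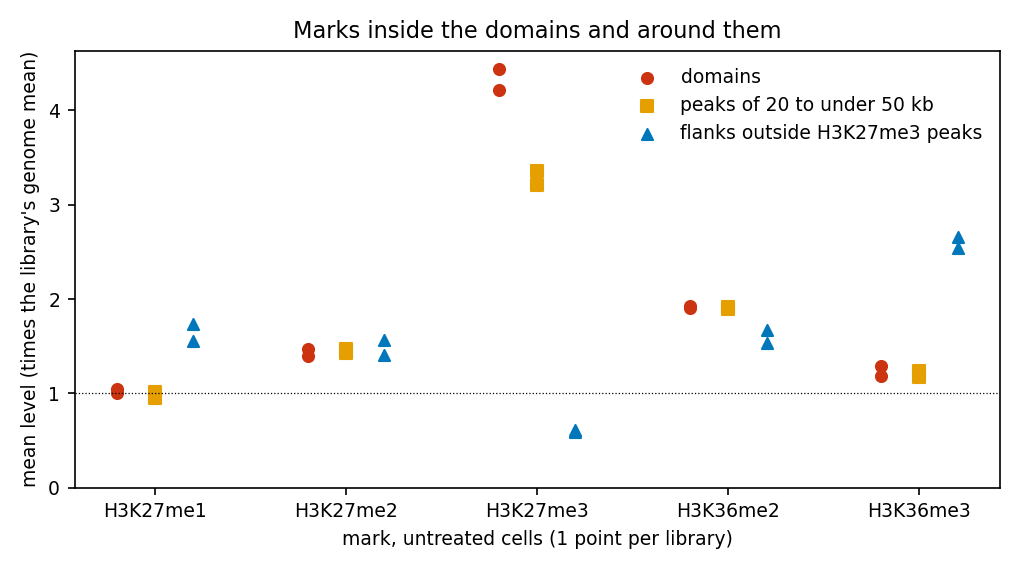
Mean level of 5 histone marks in untreated cells, in times the library's genome mean, with 1 point per library: circles are the 1564 domains, squares peaks of 20 to under 50 kb and triangles the 50 kb flanks outside H3K27me3 peaks. H3K36me3 and H3K27me1 were highest in the flanks (2.60 and 1.64 on average), and only H3K27me3 set the domains apart from the narrower peaks (4.33 beside 3.29).

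Single domains spread widely around these means. The mean of the replicates for H3K36me2 ran from 0.853 at the 5th percentile through a median of 1.89 to 3.13 at the 95th percentile of domains, and 91% of domains lay above the genome mean. H3K36me3 ran from 0.59 through 1.12 to 2.29 at the same percentiles, and H3K27me2 from 0.96 through 1.40 to 1.97. H3K27me1 was the most even, from 0.749 through 0.993 to 1.29, with 48.3% of domains above the genome mean. The highest value of every mark, 24.7 to 35.3 times the genome mean, came from 1 domain that held 64 windows above 10 times the genome mean in all 5 marks at once. Leaving out such windows changed none of the calls by over 1.5 times.

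Across the 1564 domains, H3K36me2 and H3K36me3 went together (Spearman's rho 0.916), as did H3K36me2 and H3K27me2 (0.75), while H3K27me3 followed H3K36me3 (0.475) and H3K36me2 (0.332) less closely and H3K27me1 not at all (-0.0352). Wider domains had somewhat higher H3K27me3 (0.293) and about the same H3K36me2 (-0.0403). These are descriptions across domains, which share the libraries, the mappability of the sequence and its base composition.

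Peaks of the other marks covered much of the domains. H3K36me2 peaks lay over 66.2% of their base pairs, beside 30% of windows genome-wide, and touched 1487 domains. H3K27me2 peaks covered 52.8%, beside 26.9% genome-wide, and H3K27me1 peaks 10.5%, beside 19.6%. Each mark's peaks cover an amount set by its own calling, and peaks of 20 to under 50 kb had nearly the same cover, 64.6%, 53.9% and 9.45%. Only 77 domains had no H3K36me2 peak, and 1126 had such peaks over at least 50% of their length.

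Each domain was then compared with its own 50 kb flanks in each library, and the log2 ratio was tested with limma across all H3K27me3 peaks, with calls made where the p adjusted by Benjamini and Hochberg's method was under 0.05. A median of 67% of flank windows lay in other H3K27me3 peaks, so the flanks are in large part H3K27me3 chromatin too. H3K27me1 was lower inside than in the flanks in 851 of 1564 domains and higher in 120, with a median log2 ratio of -0.21, where 34.7% of all peaks were called lower and 11.5% higher. H3K36me3 was lower inside in 778 domains and higher in 339 (median -0.17), where 26% of all peaks were called lower and 27.6% higher. With the median over windows in place of the mean, 0 domains were called for H3K36me3 in either direction and 27.7% were called lower for H3K27me1 (0% and 10.9% of all peaks). Leaving out flank windows in H3K27me3 peaks, 599 domains (38.3%) were called higher and 696 lower for H3K36me3 (median -0.07). Of all peaks, 39.6% were then called higher and 10351 of 43064 lower. H3K27me2 was lower inside in 489 domains and higher in 271 (median -0.06), where 14.6% of all peaks were called lower and 35.2% higher. H3K36me2 was higher inside in 684 domains and lower in 395 (median 0.08), where 50.7% of all peaks were called higher and 14.4% lower. With flank windows in H3K27me3 peaks left out, 970 domains were called higher and 190 lower for H3K36me2 (median 0.38), beside 65.3% and 7.87% of all peaks. The H3K27me2 ratio was of opposite sign over all peaks (median 0.11), and its median over the domains turned to 0.01 when flank windows in H3K27me3 peaks were left out. H3K27me3 in the DMSO libraries was higher inside in 1337 domains and lower in 84 (median 0.69), where 73.8% of all peaks were called higher and 8% lower. With flank windows in H3K27me3 peaks left out, 100% of domains were called higher and 0% lower, beside 99.5% and 0.00928% of all peaks. Peaks and peak-free windows were both defined by this mark in the same line, so the outcome was largely fixed by the choice and is no support for the domains. Across domains, H3K27me3 in DMSO followed that of untreated cells (Spearman's rho 0.958).

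Where the domains ended, the marks changed within a few kilobases. The step at an edge was measured as log2 of the mean level over the 5 kb inside to that over the 5 kb outside, averaged over the 3128 edges in each library. In untreated cells it was 1.12 ± 0.02 for H3K27me3 (SD, n = 2), which the peak calling itself fixes, 0.27 ± 0.02 for H3K36me2 and 0.10 ± 0.06 for H3K27me2. It was negative for H3K27me1, -0.17 ± 0.06, and for H3K36me3, -0.07 ± 0.02. Over 2 kb either side the H3K36me3 step was positive, 0.23, and over 10 kb it was -0.26, so its sign depended on the distance.

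The profile was a notch and not a cliff. In untreated cells H3K27me3 fell from 2.2 and 2.09 times the genome mean in the first window inside the edge to 0.873 and 0.898 in the first window outside, and stood at 2.67 and 2.50 again at 10.5 kb outside. H3K36me2 showed a shallower notch, from 2.04 and 1.96 inside to 1.53 and 1.48 outside and back to 1.85 and 1.79. H3K27me1 rose from 0.996 and 1.04 at 10.5 kb inside to 1.26 and 1.25 at 10.5 kb outside, although next to the edge it was higher inside (1.22 and 1.29) than outside (1.17 and 1.19). Neighbouring domains were often close, with a median gap of 200 kb and 425 of 1545 neighbouring pairs (27.5%) under 50 kb apart, and the profile counts a neighbour's windows as outside.

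**Figure D2:**
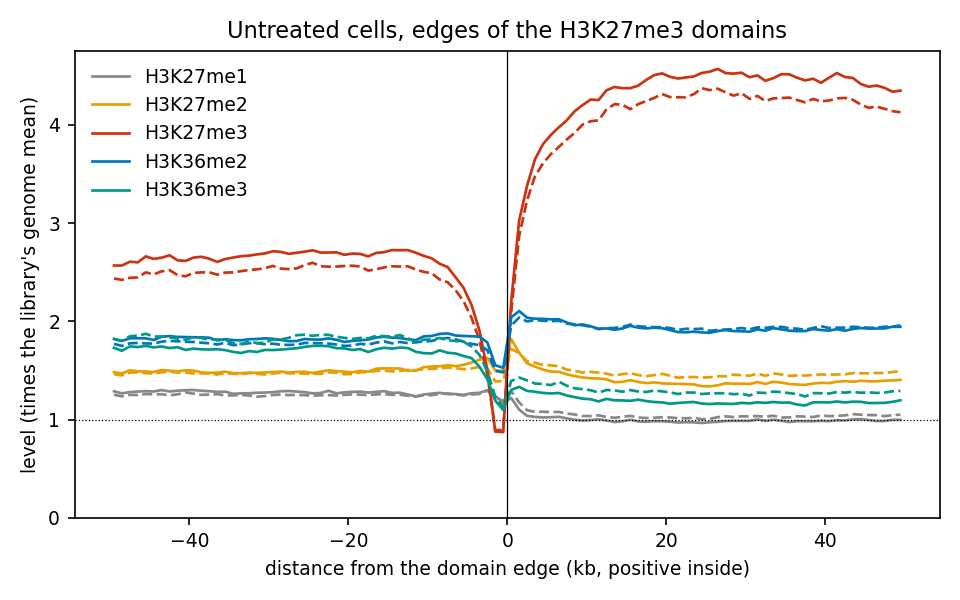
Mean level of 5 marks in untreated cells (times the library's genome mean) by distance from the edge of a domain in kb, positive inside, averaged over 3128 edges; solid lines are replicate 1 and dashed lines replicate 2. H3K27me3 drops to 0.873 and 0.898 just outside the edge, and the other marks show smaller drops there from the first window inside. H3K27me1 is higher at 10.5 kb outside than at 10.5 kb inside but not in the windows next to the edge.

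The width limit separated peaks of similar length. Just inside it, at 50000 bp, lay chr1:90709501-90759500 with no protein-coding gene (untreated H3K27me3 at 2.67 and 2.85 times the genome mean), chr10:115559501-115609500 with Lgr5, a receptor gene of intestinal stem cells (3.86 and 3.83), and chr11:87686501-87736500 with Rnf43, a ubiquitin ligase gene of Wnt signalling (4.58 and 3.96). Just outside, at 49500 bp, lay chr1:120580001-120629500 with En1, a homeobox gene of the midbrain (5.90 and 5.57), chr11:70309501-70359000 with the lipoxygenase genes Alox12e and Alox15 (5.70 and 5.47), and chr13:53048501-53098000 without a gene (3.77 and 3.38). Of these 3 peaks just outside, those of En1 and of Alox12e and Alox15 lay above all 3 just inside, and the one without a gene lay within their range. Altogether 33 domains were exactly 50 kb wide.

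Domains were unevenly spread over the chromosomes. Chromosome 11 held 106 per 100 Mb, which covered 9.34% of it, followed by chromosome 5 with 94.8 and chromosome 8 with 88.9, and chromosome 10 held the fewest, 31.4. By genes, 997 of 17274 protein-coding genes with a listed start (5.77%) and 1019 of 9520 long non-coding RNA genes (10.7%) started in a domain, while the domains made up 5.11% of all windows. Only 91 domains overlapped no annotated gene at all, and 347 overlapped no protein-coding gene.

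The Hox clusters, whose homeodomain factors pattern the body axis, were the most complete: all 22 Hox genes with a listed start began in a domain, and 36 of 39 lay whole inside one. Keratin genes, which encode the intermediate filaments of epithelia, came next with 28 of 35. Wnt ligand genes had 7 of 15, among them Wnt3a, Wnt4 and Wnt7a, and Pax genes 4 of 7 (Pax2, Pax5, Pax6 and Pax7). Of other homeobox genes 27 of 80 started in a domain, including Cdx2, Pdx1 (pancreas), Nkx2-5 (heart), Lhx2 and Six3 (forebrain and eye), and of forkhead genes 9 of 28. Potassium channel genes, among them the cardiac channel gene Kcnh2, had 19 of 69, bHLH factor genes such as Neurod2 and Neurog3 5 of 32, and the ligand genes of the BMP, GDF and FGF families 3 of 29 (Bmp10, Fgf18 and Fgf2). T-box genes had 3 of 12 (T, Tbx1 and Tbx21), Zic and Gli genes 3 of 7 (Glis1, Zic1 and Zic4), GATA genes 1 of 4 (Gata5) and Sox genes 1 of 13 (Sox8).

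Several other gene groups were counted. None of 66 ribosomal protein genes and none of 321 vomeronasal receptor genes started in a domain, and 3 of 940 olfactory receptor genes did (Olfr279, Olfr281 and Olfr288). None of the 57 clustered protocadherin genes had a listed start, and 0 of them overlapped a domain. Among pluripotency genes it was 1 of 12, Esrrb, whose gene body had H3K36me3 at 4.43 and 4.96 times the genome mean. Imprinted genes, expressed from 1 parental copy, had 4 of 27 (Dlk1, Grb10, Igf2 and Phlda2), and genes of the Polycomb complexes 2 of 25 (Cbx8 and Pcgf5). These are counts beside the 5.77% of all protein-coding genes with a listed start, with no test, from lists chosen with results of these data known.

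The longest domain, chr6:113741501-114265500, spanned 524000 bp over Atp2b2, a plasma membrane calcium pump gene, and Slc6a11, a GABA transporter gene. Its H3K27me3 in untreated cells was 4.64 and 4.71 times the genome mean, and its H3K36me2 was low for a domain, 1.11 and 1.14, with H3K36me2 peaks over 31.1% of it. The next, chr8:11010501-11492000, covered the collagen genes Col4a1 and Col4a2 and Rab20 (H3K27me3 at 5.06 and 4.67, H3K36me2 at 1.69 and 1.81). The domain of Gabbr2, a GABA receptor subunit gene, and Anks6 (chr4:46673501-47066000) had H3K27me3 at 6.09 and 5.55.

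Of the 10 longest, the domain with the most H3K27me3 was chr8:120715001-121100500, which holds the mesoderm factor gene Foxf1 and the immune factor gene Irf8 (7.80 and 7.42). At the other end of H3K36me2 was chr2:168313501-168669500, with the factor gene Nfatc2 and the flippase gene Atp9a, where H3K36me2 reached 2.92 and 2.69 and its peaks covered 99.3% of the domain while H3K27me3 was 5.29 and 4.72. The remaining 5 covered Ptpru, Ksr2 with Nos1, Camta1, Lingo1 with Cspg4, and Cd82 with Alx4, and had H3K27me3 between 4.80 and 5.78. Among the 10 longest, H3K36me2 thus varied from 1.11 to 2.92 while H3K27me3 varied from 4.64 to 7.80.

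The highest H3K27me3 came from shorter domains, among those where no other mark exceeded 3 times its genome mean. It was 9.04 and 9.58 over Fgfr3, a fibroblast growth factor receptor gene, and Letm1 (chr5:33678501-33740000), and 8.30 and 9.72 over the Hoxb cluster (chr11:96268501-96387000, Hoxb1 to Hoxb9). It was 7.99 and 9.07 over the neuronal factor gene Neurod2 (chr11:98304001-98356000) and 8.25 and 8.74 over Pak6, Ankrd63 and Plcb2 (chr2:118675001-118737000).

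All 4 Hox domains combined strong H3K27me3 with little H3K27me1. H3K27me3 was 7.08 and 9.22 in the Hoxa domain (chr6:52161001-52255000), 5.22 and 6.49 in Hoxc (chr15:102935501-103036000) and 6.24 and 7.17 in Hoxd (chr2:74640501-74787500), and replicate 2 was the higher in each. H3K27me1 was 0.545 and 0.286 in Hoxa, 0.546 and 0.329 in Hoxb, 0.606 and 0.351 in Hoxc and 0.575 and 0.394 in Hoxd, below the 5th percentile of all domains (0.749). H3K27me2 was 0.563 and 0.429 in Hoxb and 0.587 and 0.514 in Hoxd, also below its 5th percentile of 0.96. H3K36me2, by contrast, was within the range of the other domains, from 1.39 in Hoxd to 2.77 in Hoxa.

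EZH2 inhibition lowered H3K27me3 in every domain. On the spike-in scale the mean over domain windows was 214.7 and 155.5 scaled reads per window in DMSO and 0.277 and 0.209 in EZH2i, so the arms did not overlap. The level fell by 9.57 on the log2 scale, or 759-fold, with a pooled SD of 0.31 (exact two-sided permutation test, p = 0.33, the smallest that 2 against 2 libraries allow). By limma, all 1564 domains fell at an adjusted p under 0.05, with a median of -9.70, as did 100% of the 37653 peaks tested, whose median was -9.54. The fall thus says nothing about the domains in particular, and its size rests on the spike-in factor carried in the files. In such bulk samples, fewer cells with the mark and less of it per cell cannot be told apart.

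The falls of single domains ran from 93.4-fold to 1600-fold. The largest was over Parp11 (chr6:127397001-127454000), from 158 and 129 scaled reads per window in DMSO to 0.0892 and 0.0903. Among the 3 largest was also that over Calb2, the calretinin gene (chr8:110126001-110203500, 1550-fold). The smallest was over Grb10, an imprinted gene of growth control (chr11:12006501-12063500), from 274 and 241 to 2.17 and 3.34. Next were the domain of Uvssa and Nkx1-1 (chr5:33387501-33486000), from 592 and 497 to 2.69 and 4.01 (163-fold), and that of Egr3 and Pebp4 (chr14:70044501-70099500), from 296 and 192 to 1.36 and 0.923 (214-fold). The domain of Neurod2, named above for its high untreated H3K27me3, went from 544 and 420 to 1.91 and 2.32 (228-fold). Of the Hox domains, Hoxb and Hoxd fell 504-fold and 523-fold, Hoxa 1000-fold and Hoxc 1330-fold. The limma standard errors of these changes were 0.45 or 0.46 on the log2 scale.

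Relative to each library's own genome mean, the signal of the H3K27me3 libraries in the domains was lower in EZH2i. Their level was 4.41 and 4.36 in DMSO and 3.04 and 3.13 in EZH2i, a change of -0.51 on the log2 scale with a pooled SD of 0.02 (exact permutation test, p = 0.33). The domains took 22.7% and 22.4% of window reads in DMSO and 15.6% and 16.1% in EZH2i. In the flanks outside H3K27me3 peaks the level went the other way, from 0.663 ± 0.0034 to 1.39 ± 0.0415 (SD, n = 2). Genome-wide outside peaks it went from 0.424 to 0.669, and the EZH2i libraries were also the shallowest of the series. Outside peaks lay 33% and 33.4% of window reads in DMSO and 52.4% and 52.3% in EZH2i. No library was an input or a control antibody, so background reads cannot be told apart from reads of H3K27me3. The part of depth and of background in the flatter distribution was not tested. Peaks of 20 to under 50 kb changed alike, and log2 of the level in domains over that in those peaks was 0.44 and 0.43 in DMSO and 0.42 and 0.47 in EZH2i (difference 0.01, pooled SD 0.03, exact permutation test, p = 1).

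Tested against their own flanks with limma, 303 of 1564 domains fell and 17 rose relative to the flanks in EZH2i, where 5.48% of all peaks fell and 0.242% rose. The median over domains was -0.36, beside -0.43 over all peaks tested. These counts depended on the fit: 0 domains were called in either direction with a constant prior variance, without the filter on reads or with the median over windows, and 785 passed an unadjusted p under 0.05. With flank windows in H3K27me3 peaks left out 1095 domains (70%) were called lower, with a median of -1.47, beside 36.4% of all peaks, and with a pseudocount of 1 it was 1309 (83.7%) beside 71% of all peaks. That pseudocount exceeds the EZH2i means in domains (0.277 and 0.209 scaled reads per window) but is small beside those in DMSO. It shrinks the EZH2i ratios by construction, so its calls of a fall are no support for one. Leaving out 1 library gave 10.3% of domains lower without DMSO replicate 1, 10.2% without DMSO replicate 2, 63.4% without EZH2i replicate 1 and 60.9% without EZH2i replicate 2, and 0.575%, 0.575%, 12.1% and 11.8% higher. Over all peaks the same omissions gave 1.44%, 1.29%, 51.4% and 47.3% lower and 0.077%, 0.077%, 10.4% and 15.6% higher. The domain of Grb10 rose relative to its flanks by 2.78 ± 0.26 (log2, SE, adjusted p = 0.0223 by limma) and that of Egr3 by 1.54 ± 0.20 (adjusted p = 0.0298). The longest domain, over Atp2b2, fell by 1.46 ± 0.13 (adjusted p = 0.022), with log2 inside-to-flank ratios of 1.70 and 1.75 in DMSO and 0.10 and 0.43 in EZH2i.

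At the edges the step in H3K27me3 became smaller. It was 1.11 and 1.12 on the log2 scale in DMSO and 0.56 and 0.51 in EZH2i, a difference of -0.58 (exact permutation test, p = 0.33). In DMSO the level rose from 0.896 and 0.896 in the first window outside to 2.06 in the first window inside in both replicates and 4.15 and 4.17 at 10.5 kb inside. In EZH2i it rose from 1.22 and 1.29 through 1.84 and 1.87 to 2.75 and 2.77. The step in H3K36me2 was 0.32 in both DMSO libraries and 0.37 in both EZH2i libraries (difference 0.05, p = 0.33 by the same exact test).

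**Figure D3:**
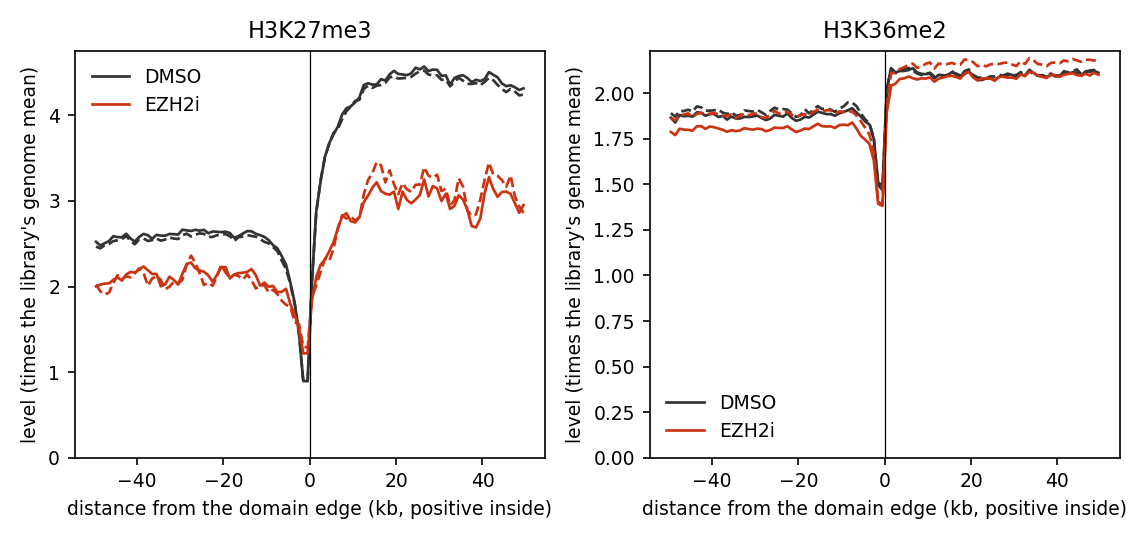
Mean level of H3K27me3 (left) and H3K36me2 (right), in times the library's genome mean, by distance from the edge of a domain in kb, positive inside; black lines are DMSO, red lines EZH2i, solid replicate 1 and dashed replicate 2. The H3K27me3 step shrinks from 1.11 and 1.12 to 0.56 and 0.51 on the log2 scale, while the H3K36me2 profiles lie close together.

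Averaged over all reads, H3K27me3 in EZH2i was higher relative to its surroundings at CpG-rich start sites in the domains, which a minority of these starts carried. Start sites were measured as the 3 kb around a listed start, beside surroundings 10 to 20 kb away, and this comparison was added after the domain results had been seen. Over the 560 CpG-rich start windows in domains, the level was 12.5 and 12.2 times the genome mean in DMSO and 17.7 and 26 in EZH2i, while around them it was 4.39 and 4.49 and then 3.17 and 3.46. Log2 of start over surroundings went from 1.51 and 1.45 to 2.48 and 2.91, a difference of 1.22 with a pooled SD of 0.22 (exact permutation test, p = 0.33). Over the 1660 CpG-poor start windows it went from 0.44 and 0.43 to 0.50 and 0.60 (difference 0.12, pooled SD 0.05, exact p = 0.33). CpG-rich starts in other H3K27me3 peaks moved by 0.14 (pooled SD 0.21, exact p = 1) and those in no peak by 1.14 (pooled SD 0.12, exact p = 0.33), the latter from levels of 0.558 and 0.544 to 1.86 and 2.01. Around CpG-rich starts in other peaks the level was 1.76 and 1.81 in DMSO and 1.71 and 1.61 in EZH2i. The classes are thus set against unlike surroundings.

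**Figure D4:**
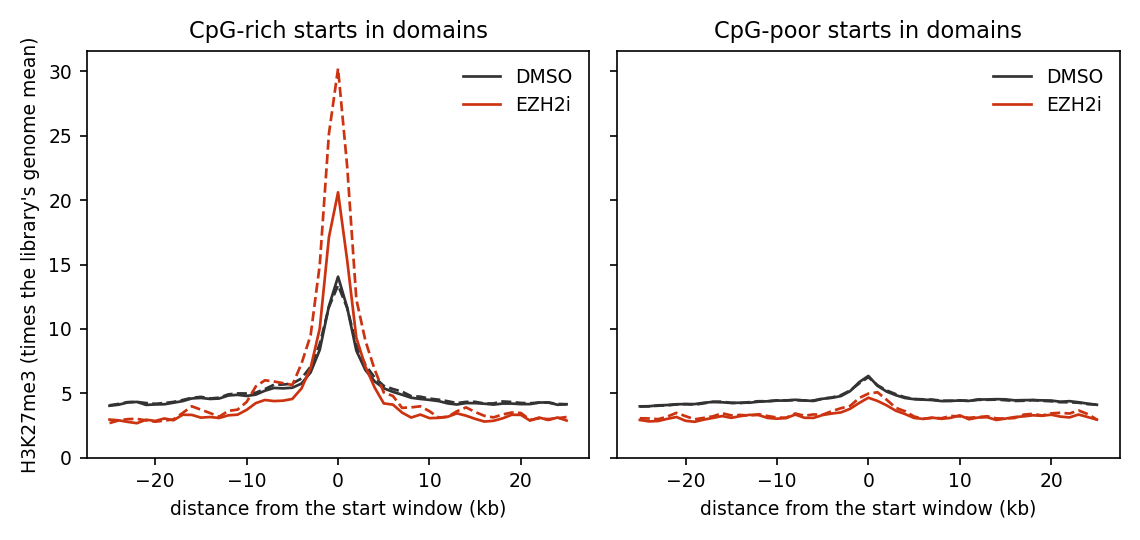
Mean H3K27me3 (times the library's genome mean) by distance from the start window in kb, at 560 CpG-rich (left) and 1660 CpG-poor (right) start windows in domains; black lines are DMSO, red lines EZH2i, solid replicate 1 and dashed replicate 2. At CpG-rich starts both EZH2i libraries peak above both DMSO libraries and lie below them in the surroundings.

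A minority of starts made up this mean. Per start, over the windows tested with limma, the median change in log2 of start over surroundings was 0.21 at CpG-rich and -0.15 at CpG-poor starts in domains, beside -0.54 at CpG-rich starts in other H3K27me3 peaks and 1.35 at those in no peak. At CpG-poor starts in domains and CpG-rich starts in other peaks the median was thus of opposite sign to the difference of the means. The median CpG-rich start fell from 12.1 and 11.8 times the genome mean in DMSO to 6.2 and 7.41 in EZH2i, and starts above 10 times the genome mean went from 346 and 342 to 220 and 248 of 560. The 56 highest starts of each library held 19.5% and 19.8% of all start reads in DMSO and 47% and 50.1% in EZH2i. The highest start was at 31.3 and 32.6 times the genome mean in DMSO and at 259 and 510 in EZH2i. In reads, the median CpG-rich start had 297 and 374 in DMSO and 7 and 15 in EZH2i, so a typical start is poorly measured there.

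With limma across all start windows, 66 of 541 tested CpG-rich starts in domains (12.2%, in 59 domains) rose relative to their surroundings and 5 fell, where 1.5% of all 18114 windows rose and 0.745% fell. An unadjusted p under 0.05 was reached by 226 of these 541 starts and by 1792 of 4511 CpG-rich starts in no peak. Of the starts in no peak, 82 rose and 1 fell by the adjusted p. They held fewer reads, a median of 8 and 10 in DMSO, and the part of read depth in the called shares was not tested. Of 1461 CpG-poor starts in domains, 19 rose and 7 fell. Windows of one gene or of neighbouring genes overlap in part and are not independent. No start in a domain was called without the filter on reads, with a constant prior variance or without either DMSO replicate, where 84 to 214 CpG-rich starts passed an unadjusted p under 0.05, whereas without EZH2i replicate 1, 45.9% rose and 25% fell (26.2% and 22.6% of all windows), and without EZH2i replicate 2, 41.9% rose and 31.3% fell (31.6% and 22.7% of all windows). On the spike-in scale each of the 66 starts still fell, by 46.6-fold to 356-fold with a median of 156-fold.

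The starts named next were chosen from those that rose after their values had been seen. Nkx1-1, whose promoter is printed above, had 31.3 and 32.6 times the genome mean in DMSO and 259 and 510 in EZH2i, from 293 and 1032 reads, and rose by 3.01 ± 0.25 relative to its surroundings (log2, SE, adjusted p = 0.0374 by limma). Cdx2 went from 21.0 and 24.2 to 69.9 and 113 (3.44 ± 0.33, adjusted p = 0.0374), and Ihh from 25.8 and 25.1 to 118 and 182 (3.29 ± 0.29, adjusted p = 0.0374). The largest rise among the CpG-rich starts called in domains was at Ebf3, a factor gene of neurons and muscle, from 23.1 and 20.7 to 73.5 and 131 (3.71, adjusted p = 0.0442 by limma). Each of these starts was higher in both EZH2i libraries than in both DMSO libraries on this scale.

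Dll1, a Notch ligand gene, rose by 3.14 and 3.11 at its 2 start windows, Barhl2, a homeobox gene of the nervous system, by 3.06, Emx1, a homeobox gene of the cortex, by 3.02, and Wnt7a, whose start window also holds Gm30437, by 2.80. Wnt3a rose by 2.54, Pax2, a gene of kidney and eye, by 2.59, and Trp73, a p53 family gene, by 2.85. Within the longest domains, the start of Gabbr2 rose by 2.99 and that of Fendrr, a non-coding RNA gene beside Foxf1, by 3.01. Of the imprinted genes, Igf2 rose by 3.87, 2.33 and 2.09 at CpG-poor start windows and 2.87 at a CpG-rich one, and Dlk1 by 3.11 at a CpG-poor one. The thyroid hormone deiodinase gene Dio3 rose by 3.40 and its antisense partner Dio3os by 3.52.

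Not every CpG-rich start did so. Hoxd13 had 12 and 11.1 times the genome mean in DMSO and 8.85 and 18.3 in EZH2i, from 10 and 37 reads, and its change relative to the surroundings was -0.94 ± 0.34 (adjusted p = 0.141 by limma). In the same cluster Hoxd11 rose by 2.25 (adjusted p = 0.0442), and so did Evx2, the homeobox gene next to the cluster, at a start classed as CpG-poor, by 3.09 (adjusted p = 0.0442). The 5 CpG-rich starts called lower were those of Chd5, Zfp316, C130026L21Rik, Gm38462 and Gm31317. That of Chd5, a chromatin remodeller gene, fell by 2.10 and that of Zfp316 by 2.67, from 438 and 550 to 4 and 9 reads and from 266 and 529 to 2 and 12 reads. The largest change among the CpG-rich starts called in domains was the fall at Gm31317, by 4.49 on the log2 scale (adjusted p = 0.0374 by limma), from 135 and 179 to 1 and 3 reads. Its own level went from 5.49 and 5.63 to 0.885 and 1.48 times the genome mean. This start lies in the domain of Neurod2, and its surroundings held 252 and 848 reads in EZH2i, so the 4.49 is not a change of the start alone. Among CpG-poor starts, Nos1 changed by -0.18 ± 0.40 (adjusted p = 0.798), with 9.36 and 9.82 times the genome mean in DMSO and 6.2 and 6.42 in EZH2i. Krt5 had 242 and 259 reads in DMSO but 9 and 2 in EZH2i, and its change of -0.36 ± 1.36 (adjusted p = 0.887) shows how little such a start can be resolved at this depth.

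On the spike-in scale the difference in H3K36me2 in the domains between the arms was smaller than the spread between replicates. H3K36me2 was 682 and 451 scaled reads per window in DMSO and 846 and 494 in EZH2i, a difference of 0.22 on the log2 scale with a pooled SD of 0.49 (exact permutation test, p = 0.667). By limma, 0 of 1564 domains were called in either direction, also 0 at an unadjusted p under 0.05, where 0% of all 43094 peaks were called, and the median over domains was 0.23. That median was -0.07 without DMSO replicate 2 and -0.18 without EZH2i replicate 1, so its sign depended on the libraries kept. Replicate 1 was the higher in both arms, so these omissions also unbalance the replicates. EZH2i was above DMSO in both same-numbered pairs, but the labels do not say that a number marks a shared batch. Relative to the library mean the domains were at 2.11 in both DMSO libraries and at 2.09 and 2.18 in EZH2i.

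Against the flanks, H3K36me2 was slightly higher in EZH2i. The log2 ratio of domains to flanks was 0.21 and 0.20 in DMSO and 0.29 in both EZH2i libraries, a difference of 0.08 with a pooled SD of 0.01 (exact permutation test, p = 0.33). Relative to the genome mean, the domains averaged 2.11 in DMSO and 2.14 in EZH2i. The flanks averaged 1.83 and 1.75, and their part outside H3K27me3 peaks 1.59 and 1.43, so the flanks moved more than the domains. By limma 20 domains rose relative to their flanks and 0 fell, where 0.281% of all peaks rose and 0.128% fell, 444 domains passed an unadjusted p under 0.05, and the median over domains was 0.05. No rise was called with a constant prior variance, with the median over windows or with flank windows in H3K27me3 peaks left out, where the median over domains was larger, 0.12. The share that rose was 4.41% without DMSO replicate 1, 0.448% without EZH2i replicate 1 and 2.43% without EZH2i replicate 2, beside 1.71%, 0.109% and 0.388% of all peaks. The largest rise, 0.45 (adjusted p = 0.0337 by limma), was in chr7:78675501-78760000, which holds no protein-coding gene and where H3K36me2 went from 0.866 and 0.914 times the genome mean to 1.34 and 1.28.

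The next 4 were the domains of the amino acid transporter genes Slc6a18 and Slc6a19 (chr13:73658501-73718000, 0.43), of Jakmip1 (chr5:37149001-37216000, 0.39), of Mlkl, a gene of necroptosis, with Fa2h (chr8:111310001-111428500, 0.38) and of Zfp395 with Pnoc, the prepronociceptin gene (chr14:65398001-65492500, 0.37). The inside level relative to the genome mean was higher in both EZH2i libraries than in both DMSO libraries in 4 of these 5 domains, whereas the domain of Pnoc had 1.33 and 1.12 in DMSO and 1.48 and 1.17 in EZH2i. H3K27me3 of the 5 fell 828-fold to 1240-fold on the spike-in scale, within the range of the other domains. Relative to the flanks, H3K27me3 fell by 1.49, 0.75, 2.50 and 1.40 on the log2 scale in the domains of Slc6a18, Jakmip1, Mlkl and Pnoc (adjusted p = 0.038, 0.0474, 0.022 and 0.0233 by limma), and its change in the domain without a coding gene was -0.03 (adjusted p = 0.98), beside the median of -0.36 over all domains.

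Split by H3K36me2 peaks of untreated cells, domains without such a peak changed more than the others. In these 77 domains H3K36me2 relative to the genome mean was 1.03 and 1.10 in DMSO and 1.35 and 1.42 in EZH2i, a change of 0.37 on the log2 scale with a pooled SD of 0.06 (exact permutation test, p = 0.33). In the 361 domains with H3K36me2 peaks over less than 50% of their length it was 1.48 and 1.52 and then 1.67 and 1.73 (0.18, pooled SD 0.03). In the 1126 domains covered over at least 50% it was 2.38 and 2.37 and then 2.28 and 2.38 (-0.03, pooled SD 0.03). In untreated cells, whose peaks set these groups, the level was 0.646 and 0.853, 1.11 and 1.28, and 2.26 and 2.21, in the same order. DMSO, without the inhibitor, was thus also higher than untreated cells, least so in the 1126 domains. The part of this grouping and of the separate experiments in the change was not tested. Peaks of 20 to under 50 kb split the same way changed by 0.39, 0.19 and -0.07, so the pattern was not particular to the domains. The change in H3K27me3 relative to the library mean was -0.45, -0.55 and -0.50 in the 77, 361 and 1126 domains.

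**Figure D5:**
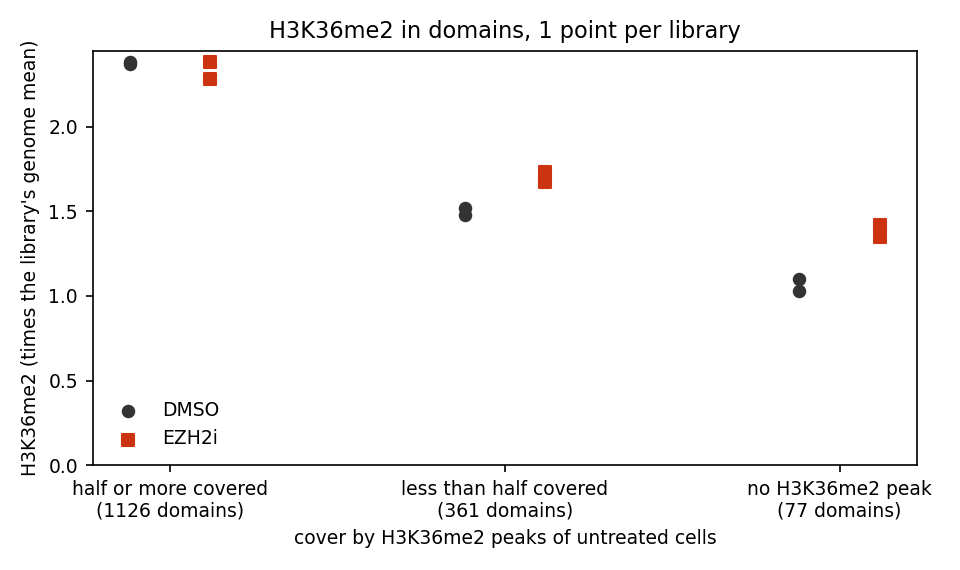
H3K36me2 in domains, in times the library's genome mean, with 1 point per library, for domains grouped by how much of them H3K36me2 peaks of untreated cells cover; black circles are DMSO and red squares EZH2i. In the 77 domains without such a peak both EZH2i libraries (1.35 and 1.42) lie above both DMSO libraries (1.03 and 1.10), while in the 1126 domains covered over at least 50% the arms meet. Untreated cells, not drawn, were at 0.646 and 0.853 in the 77 domains, below DMSO.

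At CpG-rich starts in domains H3K36me2 was lower than around them in every library. Log2 of start over surroundings was -0.21 and -0.32 in untreated cells, -0.32 and -0.27 in DMSO and -0.48 and -0.37 in EZH2i, and at CpG-poor starts it was 0.12 in both DMSO libraries and 0.09 and 0.11 in EZH2i. By limma 0 of 560 CpG-rich starts were called, where 0% of all windows rose and 0.0395% fell, and 74 passed an unadjusted p under 0.05. No CpG-rich start in a domain was called for H3K36me2 with 1 library left out, without the filter or with a constant prior variance. The lower methylation states of lysine 27 were also lower at CpG-rich starts than around them. H3K27me2 was 1.02 and 0.875 times the genome mean in untreated cells beside 1.49 and 1.47 around them, and H3K27me1 0.905 and 0.526 beside 1.08 and 1.03. H3K27me3 at the same starts was 9.03 and 9.19 beside 4.30 and 4.24. At CpG-rich starts in no H3K27me3 peak, H3K27me2 was 1.02 and 0.864 beside 1.51 and 1.34. H3K27me1 there was 1.56 and 0.986 beside 1.93 and 1.6. Log2 of start over surroundings for untreated H3K36me2 was -0.14 and -0.25 at these starts, and 0.02 and -0.08 at CpG-rich starts in other H3K27me3 peaks. The lower H3K27me1, H3K27me2 and H3K36me2 at CpG-rich starts were thus not particular to the domains.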

How the data were processed

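ChIP-seq tracks of 18 libraries in 9 groups of 2 replicates and the peak lists were used as deposited. Reads were trimmed with Trim Galore 0.4.2 and aligned with Bowtie2 2.2.6.2, and SICER (version not given) is named, per the submitters' processing notes, which list the builds mm10 and dm3. The deposited tracks hold 1 kb windows every 500 bp on a log2 scale, log2(1 + scaled reads), from which whole reads were recovered for 100% of values (tolerance 0.02 reads). The score of the deposited peak lists has no stated scale and was used only to rank domains.

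The non-overlapping windows were kept. A window belonged to a peak when at least 500 bp overlapped. Values per peak were log2(mean + 0.01), for peaks with at least 1 read in every library, and ratios set the inside against both 50 kb flanks. Tests used limma 3.58.1 in R 4.3.3 with the prior variance as a trend on windows per peak, over all 43094 H3K27me3 peaks. Only the H3K36me2 comparisons of EZH2i with DMSO were tried on simulated data, the level there scaled to library totals. The H3K27me3, untreated and start-window fits were not. Start windows came from RefSeq promoters (GRCm38.p6) and were fitted with limma on log2 of mean reads at the start over mean reads around it, without a pseudocount. At least 1 read was required at the start and around it in every library. There the prior variance was a trend on log2 of the reads at the start, summed over libraries. Class means used the exact permutation test over libraries, which cannot go below 0.33. Alternatives covered windows, widths, scores, pseudocount, filter, prior, flanks, scaling, voom and left-out replicates.

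Domains named were the 10 longest, the 5 highest in untreated H3K27me3 with no other mark above 3 times its genome mean, the Hox domains, 3 on each side of the width limit, the 5 largest called H3K36me2 rises (no fall was called) and the 3 largest and 3 smallest H3K27me3 falls. Of these, 2 domains are not reported here. Starts and the further domains were named after their values were seen. The members and the gene lists were chosen with earlier results of these data known. The central bases of the strongest windows had been planned for printing; without a genome sequence RefSeq promoters were used.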

Additional observations from a re-analysis of the deposited data

How the results depend on the processing

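Of the alternatives tried, the fall of H3K27me3 under EZH2i on the spike-in scale kept its direction and call in all domains in each fit but the one scaled to library totals, where 0% of domains were called lower and the mean over domains differed by -0.51. On that scale 24 of the named domains were lower and no longer called, and 8 others changed sign, to 0.02 for the domain with Fgfr3, 0.03 for that with the Hoxb genes, 0.03 for that with the Hoxd genes, 1.23 for Neurod2, 0.10 for Pak6, 2.48 for Grb10, 1.69 for Nkx1-1 and 1.33 for Egr3. By construction library totals remove a change that is shared by the whole genome. A fit with limma-voom on recovered reads, added after the data were seen, called 100% of domains lower, with a median of -9.79, and no domain for H3K36me2. The planned voom fit with the factor applied the other way round was not run.

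The count of domains called for the change in the H3K27me3 inside-to-flank ratio depended on the settings. A pseudocount of 1 shrinks the EZH2i ratios by construction, and the cause was not tested for the other settings. The share called higher was 0% (0% of all peaks) with the median over windows, with no filter or with a constant prior variance, 1.79% (0.242%) for domains scoring at or above the median, 3.45% (6.91%) with a pseudocount of 1, 0.512% (0.138%) with a pseudocount of 0, added later, and 0.448% (0.218%) with flank windows in H3K27me3 peaks left out. It ranged from 0.575% to 12.1% (0.077% to 15.6%) with 1 library left out. The share called lower was 0% (0%) with the median over windows, with no filter or with a constant prior variance, 83.7% (71%) with a pseudocount of 1, 9.78% (1.78%) with a pseudocount of 0 and 70% (36.4%) with those flank windows left out, and ranged from 10.2% to 63.4% (1.29% to 51.4%) with 1 library left out. The mean ratio over domains differed by -0.38, by -0.23 in domains of 100 kb or more, by -0.32 in domains with scores at or above the median and by -1.57 with the flank windows left out. Relative to the library mean, the H3K27me3 difference was -0.45 in domains scoring at or above the median and -0.72 as a median over domains, and -0.53 to -0.49 with 1 library left out.

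For H3K36me2 on the spike-in scale, library totals gave 16.2% of domains called higher and 4.09% lower, beside 16.5% and 1.31% of all peaks. Its median over domains ran from -0.18 without EZH2i replicate 1 to 0.64 without EZH2i replicate 2 and was -0.07 without DMSO replicate 2, and the mean over domains ran from -0.17 to 0.61 over the same omissions, with -0.08 without DMSO replicate 2. Relative to the library mean the difference was -0.01 without EZH2i replicate 2 and at most 0.05. The share called higher in the H3K36me2 ratio was 0% (0% of all peaks) with the median over windows, with a constant prior variance or with flank windows in H3K27me3 peaks left out, 2.66% (0.281%) in domains of 100 kb or more, and 0.448% to 4.41% (0.109% to 1.71%) with 1 library left out. The share called lower was 0.0639% (0.132%) with a pseudocount of 1 and 0% to 0.32% (0.0487% to 0.763%) with 1 library left out. The mean of this ratio differed by 0.17 with the flank windows left out and by 0.05 as a median over domains.

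In untreated cells, with the share of all peaks in parentheses, the share with a higher H3K27me1 ratio was 2.17% (3.04%) with the median over windows, 2.05% (10%) with a constant prior variance and 14.7% (14.4%) with flank windows in H3K27me3 peaks left out, and 27.7% (10.9%) were lower with the median over windows. For H3K27me2, a constant prior variance gave 10.5% (32.2%) higher and 20.5% (11.9%) lower, and leaving out those flank windows gave 24.3% (41.1%) higher, 19.3% (11.6%) lower and a median of 0.01 in place of a negative one. For H3K36me2, 13.5% (12.1%) were lower with a constant prior variance and 12.1% (7.87%) without those flank windows. For H3K36me3, 0% (0%) were called in either direction with the median over windows, and 8.18% (23.5%) were higher with a constant prior variance and 38.3% (39.6%) without those flank windows. Without them 696 of 1564 domains were lower, beside 10351 of 43064 peaks. In DMSO, the share with a lower H3K27me3 ratio was 1.92% (2.02%) with the median over windows, 2.43% (8%) in domains scoring at or above the median, 2.69% (7.16%) with a constant prior variance and 0% (0.00928%) without those flank windows. Leaving out an untreated library left values but no test.

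The step at domain edges was -0.01 for H3K27me1 over 2 kb either side. Over 2 kb and then 10 kb, it was 0.26 and 0.03 for H3K27me2, 1.53 and 0.87 for untreated H3K27me3, 0.43 and 0.19 for untreated H3K36me2, 0.23 (a change of sign) and -0.26 for H3K36me3, 1.46 and 0.88 for H3K27me3 in DMSO, 0.48 and 0.23 for H3K36me2 in DMSO, and 0.52 and 0.28 for H3K36me2 in EZH2i, while H3K27me3 in EZH2i gave 0.64 over 2 kb. Counting domains touched by 1 bp or more gave 62.2% for H3K27me1 peaks and 96.2% for H3K27me2 peaks, and 2.56% were covered by H3K27me1 peaks over 50% or more of their length.

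The share of CpG-rich starts called higher against their surroundings (12.2%) was 0% with no filter and 0.5 reads added and 0% with a constant prior variance, and ran from 0% to 45.9% with 1 library left out (0% to 31.6% of all start windows), all settings added after the data were seen. Its share called lower was 0% in the first 2 settings and ran from 0% to 31.3% (0% to 22.7% of all start windows). The shares of CpG-poor starts were 0% in those settings, and ran from 0% to 27.2% higher and 0% to 34.3% lower with 1 library left out. These starts held few reads in the EZH2i libraries, a median of 7 and 15 at CpG-rich starts, so at a typical start neither a change nor its absence can be read at this depth. The CpG-rich starts called higher held from 17 and 37 reads (Tmem200c) to 293 and 1032 (Nkx1-1), and their count depended on the settings above.

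The labels number the replicates in both groups but do not say that a number marks a shared batch, and the groups share 2 numbers. The deviations of same-numbered samples from their group means correlated with r = 0.044 over all peaks and 0.26 over the domains for H3K27me3, and with 0.25 and 0.65 for H3K36me2, across peaks and not across samples. With the replicate block, the H3K27me3 ratio was called higher in 3.9% and lower in 35.6% of domains (0.717% and 15.1% of all peaks), H3K36me2 on the spike-in scale higher in 19.6% (26.3%), and the H3K36me2 ratio higher in 19.2% and lower in 2.37% (4.43% and 1.6%). With the replicate block and flank windows in H3K27me3 peaks left out (added later), 77.9% were lower and 0.831% higher for the H3K27me3 ratio (43.1% and 0.38% of all peaks), and for the H3K36me2 ratio 14.6% were higher and 1.09% lower (2.56% and 0.752%). With the block, CpG-rich starts were called higher for H3K27me3 in 23.5% and lower in 5.36%, and CpG-poor starts in 3.08% and 4.18%, beside 12% and 5.2% of all start windows. For H3K36me2, where none had been called, the block called 2.5% of CpG-rich starts lower and 0% higher, and 1.27% of CpG-poor starts lower and 0.241% higher, beside 1.24% and 0.24% of all windows. For named domains the block changed no call of H3K27me3 on the spike-in scale and none of the named H3K36me2 ratio rises. Other ratios of named domains were not followed across the settings.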
